A study of Mus musculus with 14 samples.

Results

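The receptors and ligands of the colony-stimulating factors comprised 8 genes of the 49315 in the count table: Csf1r, Csf1, Il34, Csf2ra, Csf2rb, Csf2rb2, Csf3r and Il3ra. They were found by matching each Ensembl identifier of the table to the GRCm38 annotation and keeping those symbols. All 8 had counts, and 7 passed the filter on low counts that left 15700 genes for testing. Il34 did not pass. As a group they were chosen by the known role of these proteins and by 1 measured value, the difference of Csf2ra between TIMP2 KO and WT cultures in these same libraries. Their differences between genotypes are therefore given as a description, with intervals and without their own p-values, and counts of members past a threshold or above 0 are printed beside those of all genes with nothing read from them.

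CSF1R is the receptor tyrosine kinase on which microglia, the macrophages that reside in the brain, depend for survival and proliferation. Its ligands are CSF1, which glial cells of the brain make, and IL-34, which is made largely by neurons. GM-CSF, IL-3 and IL-5 act through another kind of receptor, in which a ligand-specific alpha chain (CSF2RA for GM-CSF, IL3RA for IL-3) pairs with a shared beta chain, CSF2RB, that recruits the kinase JAK2 and the transcription factor STAT5. Mice carry a second beta chain gene, Csf2rb2, whose product serves IL-3 only. CSF3R is the receptor of G-CSF, best known for its part in making neutrophils.

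RNA was measured in cultured primary microglia of mice labelled C57BL/6, which the study's methods give as a C57Bl/6J background. The 7 KO libraries came from pups without TIMP2, a secreted inhibitor of matrix metalloproteinases, and the 7 WT libraries from wild-type pups, and the labels name no other allele or agent in either group. The deletion is global, so that KO microglia had developed among other cells that also lacked TIMP2. Each library was a separate isolation from the forebrains of 5 pups aged P6-P7, males and females together, selected with CD11b beads and cultured for 72 h in medium with serum and no stated CSF1, IL-34 or GM-CSF. The receptors were thus measured away from the tissue that supplies their ligands.

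The deletion was visible in each library. Timp2 lay between 397.6 and 495 CPM (the usual unit of counts scaled to a common library size, with library sizes adjusted by TMM) in WT, with a median of 476, and between 119.6 and 129 CPM in KO, with a median of 121. The groups did not overlap, and Timp2 fell by 1.92 on the log2 scale (SE 0.0464; edgeR quasi-likelihood test, Benjamini-Hochberg adjusted p = 1.53e-12). Depth was similar throughout, from 38875344 to 48070236 counted reads per library, so counting error is small for every member but Il34. Summed over 13 microglial markers, libraries held 7120 to 8864 CPM in WT and 7569 to 8892 CPM in KO. Ly6g, which defines neutrophils, was at 0 in 10 of 14 libraries and had 6 reads in all. The 8 markers of neutrophils and their precursors summed to 0.307 to 12.4 CPM in WT and 1.97 to 19.7 CPM in KO. Aqp4, a marker of astrocytes, was above 0 in every library (1.16 to 52.2 CPM). So were Rbfox3 of the neuronal list (3.14 to 7.08 CPM) and Zbtb46 of the monocyte and dendritic cell list (2.99 to 4.0 CPM). The 2 libraries numbered 5, KO 5 and WT 5, stood apart together. They held the least Csf1 and the least RNA of 9 astrocyte markers, and results that rest on them are given with and without them.

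Csf1r was the most abundant member and the 21st most abundant of all tested genes by CPM. It lies at chr18:61100598-61132149 on the plus strand of GRCm38, and 873 bases of its exons are also annotated as exons of Hmgxb3 on the minus strand. In WT libraries Csf1r ranged from 2251 to 3006 CPM with a median of 2570.0 CPM, and in KO libraries from 2242 to 3323 CPM with a median of 2767. The KO range covered the whole WT range: KO 1 was the lowest of the 14 libraries, and KO 5 and KO 6 were above every WT library. The log2 fold change of KO over WT was 0.15 (SE 0.0855; 95% interval -0.03 to 0.33). Hmgxb3 was at 44.5 ± 2.34 CPM in WT and 44.5 ± 4.12 CPM in KO (SD, n = 7 each), so reads of that gene, even if they were all assigned to the shared bases, would be few beside those of Csf1r.

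Csf1, the ligand, was the most variable of the tested members (chr3:107741048-107760469, minus strand). WT libraries held between 9.66 and 47.2 CPM with a median of 30.2 CPM, and KO libraries between 10.9 and 46.6 CPM with a median of 33.5. Both genotypes covered the same span, and in each of them the library numbered 5 was the lowest. The log2 fold change was 0.01 (SE 0.328; 95% interval -0.69 to 0.71), so a change of 1.5-fold in either direction was within reach of the error. Within a genotype the SD of log2 CPM was 0.744, which was larger than in 99.53% of the 4006 genes whose level lay within 2-fold of that of Csf1. Without both libraries numbered 5 this SD was 0.445 and the libraries ran from 21.3 to 47.2 CPM.

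Il34, the other ligand of CSF1R, was close to the limit of detection (chr8:110741829-110805924, minus strand). It had 131 reads over all 14 libraries. The counts were 3, 9, 9, 13, 3, 18 and 8 in WT 1 to 7 and 16, 18, 3, 8, 2, 3 and 18 in KO 1 to 7. These correspond to 0.0636 to 0.418 CPM in WT and 0.0494 to 0.454 CPM in KO. Each genotype thus held libraries with 3 reads or fewer and libraries with 18, and no fold change was fitted.

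Csf2ra, the alpha chain of the GM-CSF receptor, lies at chr19:61223957-61228429 on the minus strand. WT libraries ranged from 244 to 276 CPM with a median of 265 CPM, and KO libraries from 259.7 to 304 CPM with a median of 285. Of the KO libraries, 6 of 7 were above every WT library. The exception, KO 1, lay between WT 1 and WT 3, so that the groups overlapped. The log2 fold change was 0.14 (SE 0.0379; 95% interval 0.06 to 0.22), a fold of 1.10 (95% interval 1.04 to 1.16). Csf2ra was also the steadiest member, with an SD of log2 CPM within genotype of 0.0721, and 51.56% of the 1315 genes at a similar level were steadier.

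The promoters of Csf2ra and of Csf2rb2 are printed because they are the members of the GM-CSF and IL-3 receptors for which the 250 bases before the RefSeq start site hold the core letters of the macrophage factor PU.1. These letters, GAGGAA on either strand (TTCCTC on the other), are in capitals, as is TTCNNNGAA, the spaced palindrome to which STAT5 binds, here TTCTGAGAA. The Csf2ra window is chr19:61228419-61228668 and the Csf2rb2 window chr15:78305722-78305971, both on the minus strand of GRCm38.p6, and the last 11 bases of the first lie inside the GENCODE gene.
Csf2ra promoter: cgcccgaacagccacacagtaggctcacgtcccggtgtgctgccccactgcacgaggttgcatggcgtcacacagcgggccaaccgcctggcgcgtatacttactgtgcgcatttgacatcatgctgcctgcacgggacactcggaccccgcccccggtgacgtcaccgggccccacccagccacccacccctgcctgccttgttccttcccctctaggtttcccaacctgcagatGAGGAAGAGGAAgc
Csf2rb2 promoter: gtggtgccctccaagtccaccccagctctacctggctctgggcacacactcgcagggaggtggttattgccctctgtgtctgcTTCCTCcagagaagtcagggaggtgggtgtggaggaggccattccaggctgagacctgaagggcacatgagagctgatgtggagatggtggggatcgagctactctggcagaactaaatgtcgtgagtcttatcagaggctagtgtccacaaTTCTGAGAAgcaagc
RefSeq gave windows for 5 of 8 members, those of Csf1, Csf3r, Il3ra, Csf2rb2 and Csf2ra. GAGGAA occurred in 3 of these 5, in Csf3r at -86 to -81 from the start site, in Csf2rb2 on the reverse strand at -167 to -162, and in Csf2ra in tandem at -14 to -9 and -8 to -3. It also occurred in 23.3% of the 32851 windows of the same length in the table, so its presence sets no member apart. TTCNNNGAA was found in Csf2rb2 alone, at -15 to -7, against 7.02% of all windows. The letters of RUNX factors, TGTGGT, were in 14% of all windows and in 0 of the 5 members, and those of the TATA box, TATAAA, in 12.4% and in 0 of the 5. The Csf3r window (chr4:126024409-126024658) and the Il3ra window (chr14:14346245-14346494) also reach into their GENCODE genes, which start at 126024550 and 14346275. The GAGGAA of Csf3r lies inside that gene, so not all letters counted here are upstream of the annotated genes. A match of letters is not a bound site, and no binding was measured here.

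The beta chains lie next to each other in opposite orientation, Csf2rb at chr15:78325752-78353847 on the plus strand and Csf2rb2 at chr15:78282507-78305721 on the minus strand. For Csf2rb, WT libraries ranged from 291 to 355 CPM (median 324 CPM) and KO libraries from 319 to 386 CPM (median 359). All KO libraries except KO 1 were above the WT median, and 5 of 7 were above every WT library. The log2 fold change of Csf2rb was 0.14 (SE 0.0489; 95% interval 0.04 to 0.25). For Csf2rb2, WT libraries ranged from 313 to 387 CPM (median 363 CPM) and KO libraries from 346 to 388 CPM (median 367). Both genotypes reached the same upper end, WT 5, WT 6 and WT 7 were below the lowest KO library, and the log2 fold change of Csf2rb2 was 0.04 (SE 0.0451; 95% interval -0.05 to 0.14).

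Reads of the beta chains can be told apart only where their sequences differ. The coding sequences, 2688 bases in Csf2rb and 2634 in Csf2rb2, were identical at 2503 of 2628 aligned positions (95.2%), with 125 mismatches and 66 gap columns, and the longest identical run was 242 bases. The median distance between neighbouring differing columns of the alignment was 3. Each gap column counted as a difference there, so this is not the distance between mismatches. The 150-base stretch with the most mismatches held 25, and is printed with the mismatched bases in capitals to show how a read of this length is assigned. In Csf2rb it spans coding bases 300 to 449 (exon 5, chr15:78338889-78338989, and exon 6, chr15:78340444-78340492), and in Csf2rb2 coding bases 303 to 452 (exon 4, chr15:78294342-78294442, and exon 5, chr15:78292817-78292865), all coding sequence of the GENCODE transcripts.
Csf2rb coding stretch: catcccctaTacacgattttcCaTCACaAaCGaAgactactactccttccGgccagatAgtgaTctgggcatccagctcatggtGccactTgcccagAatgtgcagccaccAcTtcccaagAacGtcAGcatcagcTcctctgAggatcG
Csf2rb2 coding stretch: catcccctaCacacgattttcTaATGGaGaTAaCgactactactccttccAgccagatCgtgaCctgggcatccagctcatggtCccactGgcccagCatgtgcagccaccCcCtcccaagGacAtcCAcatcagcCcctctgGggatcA
Of all 150-base windows of the Csf2rb transcript, 3.47% were found letter for letter in Csf2rb2, and 3.59% the other way. With 50-base windows the shares were 18.4% and 19%. A read of full length was thus ambiguous over a small part of either transcript, and reads trimmed shorter over more of it. How ambiguous reads were counted is not given in the sources used here, so the split between these 2 genes is uncertain to that extent.

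**Figure D1:**
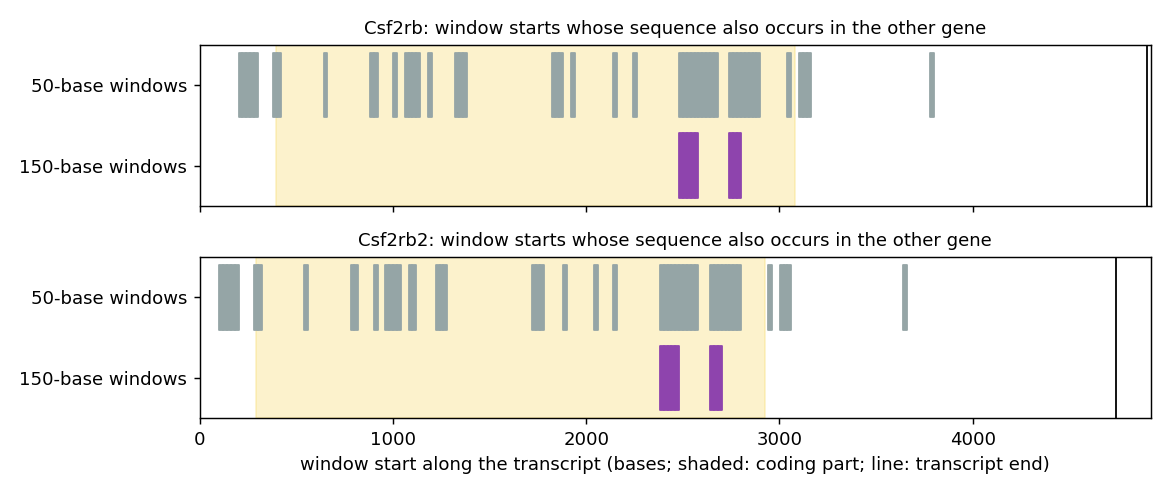
Window starts along the transcripts of Csf2rb and Csf2rb2 (horizontal axis, bases) whose 50-base (grey) or 150-base (purple) sequence occurs in the other gene, with the coding part shaded and the transcript end as a line. Shared 150-base windows, 165 in each transcript, fall into 2 blocks near the end of the coding part, while shared 50-base windows are spread along the coding part, with few outside it.

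The ratio of Csf2rb to Csf2rb2 counts ranged from 0.829 to 1.05 in WT libraries, with a median of 0.902, and from 0.898 to 1.07 in KO libraries, with a median of 0.955. The mean ratio was 0.915 ± 0.0760 in WT and 0.979 ± 0.0739 in KO (SD, n = 7 each), a difference smaller than 1 SD of either group. When the counts of both genes were summed to 1 feature, the log2 fold change was 0.09 (SE 0.0389). The level of Csf2rb moved little with that of Csf2rb2 across libraries (r = 0.253, adjusted permutation p = 0.819, rho = -0.0418, adjusted permutation p = 0.977, n = 14).

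Csf3r, the G-CSF receptor (chr4:126024550-126044440, plus strand), ranged from 224 to 258 CPM in WT with a median of 235 CPM, and from 248 to 279 CPM in KO with a median of 265. All 7 KO libraries were above the WT median, but only 4 were above every WT library, since WT 6 and WT 7 reached 258 and 257 CPM. The log2 fold change of Csf3r was 0.15 (SE 0.0394; 95% interval 0.06 to 0.23). Neutrophils also carry this receptor. Their markers and those of their precursors, 8 genes, summed to 0.307 to 12.4 CPM in WT with a median of 2.37 CPM, and to 1.97 to 19.7 CPM in KO with a median of 3.18. The 3 of them that were tested had estimates above 0 in KO over WT, 0 past the threshold, and their part in the level of Csf3r was not tested.

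Il3ra, the alpha chain for IL-3 (chr14:14346275-14356011, plus strand), was the least abundant receptor. It ranged from 49.6 to 63.3 CPM in WT with a median of 52.1 CPM, and from 52.0 to 69.7 CPM in KO with a median of 59.3. KO 1, KO 3 and KO 4 were above every WT library, and WT 1, the highest in WT, was above 4 of the 7 KO libraries. The log2 fold change was 0.17 (SE 0.0660; 95% interval 0.03 to 0.32), the largest estimate among the members and one of the less precise. Of its exonic bases, 46 are shared with an annotated gene on the other strand.

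**Figure D2:**
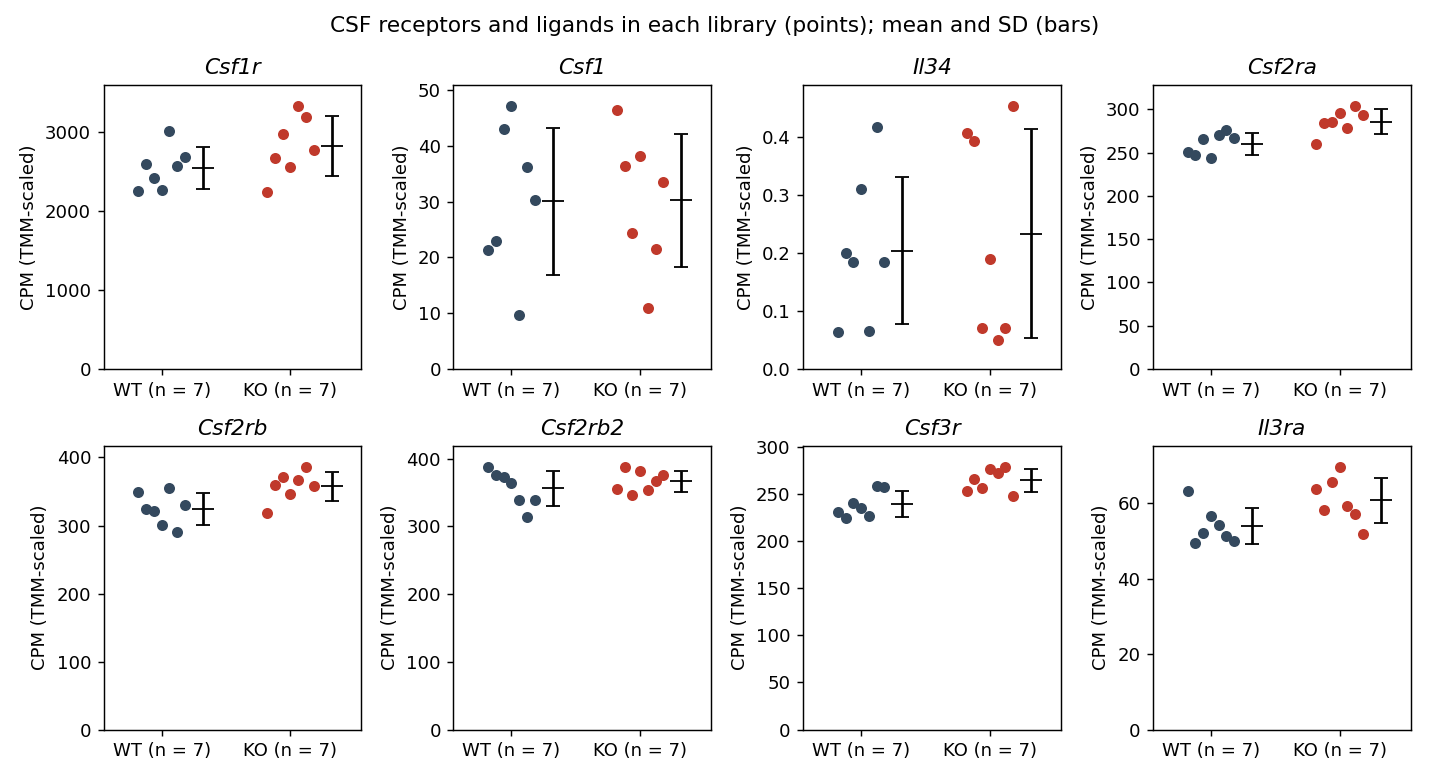
TMM-scaled CPM of each member in each WT (blue) and KO (red) library, with the mean and SD as bars and axes starting at 0. WT and KO points overlap for every member, most completely for Csf1 (9.66 to 47.2 CPM in all), while 6 of 7 KO points of Csf2ra lie above all WT points.

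Set side by side, 0 of 7 tested members had an adjusted p under 0.05 in edgeR, as against 0.0191% of all tested genes (3 of 15700). At an unadjusted p under 0.05 there were 4, all higher in KO. They were Csf2ra, whose difference entered the choice of the group and is no support for it, and Csf2rb, Csf3r and Il3ra. Over all genes, 3.37% of those tested passed in either direction and 1.75% with a higher level in KO. DESeq2 gave 0 and 4 (background 0.0955% and 3.6%), and with the replicate number as a block DESeq2 gave 0 and 5 (background 0.166% and 3.71%) and edgeR 0 and 5 (background 0.0191% and 5.87%). The gene added with the block was Csf1r, with a log2 fold change of 0.15 (SE 0.0446) in edgeR against an SE of 0.0855 without it. The study itself names Csf2ra among genes behind pathway terms drawn from those with adjusted p under 0.05 (DESeq2, batch as a covariate). That batch is not given in the sources used here, so the call could not be repeated. None of the 7 had KO and WT ranges that did not overlap (background 0.0828%). All 7 estimates were above 0 in the main edgeR fit, in which 50.8% of all tested genes were. Their median was 0.14 and that of all tested genes 0.00. The estimate of Csf1, at 0.01 in that fit, turned to -0.01 under upper-quartile scaling. Taken singly, before any adjustment for the number of genes tested, the intervals of Csf2rb, Csf3r and Il3ra lay above 0. That of Csf2ra did so too, but its difference entered the choice of the group. The upper ends of these 4 intervals were at 0.32 or less. In these bulk cultures, more cells of a type and more RNA per cell cannot be told apart. Microglial markers were above 0 for 10 of 13 genes and border macrophage markers for 4 of 5 tested genes. Astrocyte, oligodendrocyte lineage and neuronal markers were above 0 for 0 of 9, 0 of 7 and 2 of 11 tested genes. None of these genes passed the threshold, and the part of these lists in the values above was not tested.

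**Figure D3:**
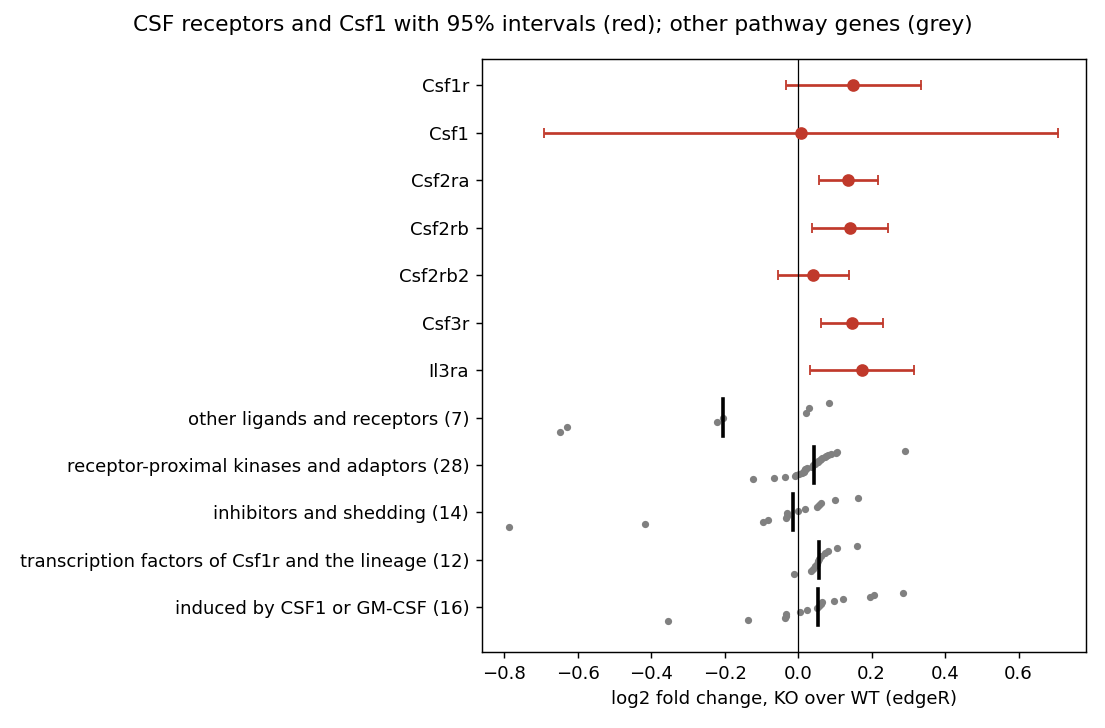
Log2 fold changes of KO over WT for the 7 tested members (red, with 95% intervals) and for the tested genes of 5 other groups of the pathway (grey points, black line at each median, number of genes in parentheses). The interval of Csf1 runs from -0.69 to 0.71, while those of the receptors are narrower, and the medians of 4 of the 5 other groups lie between -0.02 and 0.06.

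To compare levels between members, counts were divided by exon length (RPKM, the TMM-scaled CPM per kilobase of annotated exon). In WT, Csf1r was at 439 ± 45.7 RPKM (SD, n = 7 here and for the others). Csf2ra followed at 90.5 ± 4.40 RPKM, Csf2rb2 at 75.1 ± 5.53 and Csf3r at 66.2 ± 3.85. Csf2rb was at 44.6 ± 3.21 RPKM, Il3ra at 18.2 ± 1.61 and Il34 at 0.104 ± 0.0648. Csf1 was at a mean of 5.70 RPKM, from 1.83 to 8.94 between libraries. The receptor of CSF1 was thus the most abundant member and its ligands the least abundant. KO means came in the same order, from 488 RPKM for Csf1r to 0.119 RPKM for Il34.

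Neighbours in this order were compared within WT libraries by two-sided exact sign-flip tests, with adjustment over 7 pairs, in which the smallest p that 7 libraries allow is 0.0156. Csf1r exceeded Csf2ra by 2.27 on the log2 RPKM scale, a fold of 4.84, in 7 of 7 libraries (exact test, adjusted p = 0.0182). Csf1 exceeded Il34 by 5.90 (exact test, adjusted p = 0.0182). Csf2ra exceeded Csf2rb2 by 0.27 in 7 of 7 libraries (exact test, adjusted p = 0.0182). The difference of Csf2rb2 over Csf3r was 0.18, in 6 of 7 libraries (exact test, adjusted p = 0.0469). With any WT library other than WT 6 left out, the difference was 0.15 to 0.21 but no longer passed (exact test, adjusted p of 0.0625 to 0.0938). This loss was fixed in advance, since 6 libraries with WT 6 going the other way allow no exact p under 0.0625. The other 3 pairs (Csf3r over Csf2rb, Csf2rb over Il3ra, Il3ra over Csf1) also held in 7 of 7 libraries.
The places of Csf2rb2, Csf3r and Csf2rb depended on the length used. Csf2rb has 7277 annotated exon bases but a longest transcript of 4900, and with the longest transcript as length Csf3r over Csf2rb was 0.05 (exact test, adjusted p = 0.453) instead of 0.57, and Csf2rb2 over Csf3r 0.13 (exact test, adjusted p = 0.146). On that scale these 3 genes were at 75.1, 68.6 and 66.3 RPKM and no difference between neighbours could be shown, while the other pairs kept their order.

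**Figure D4:**
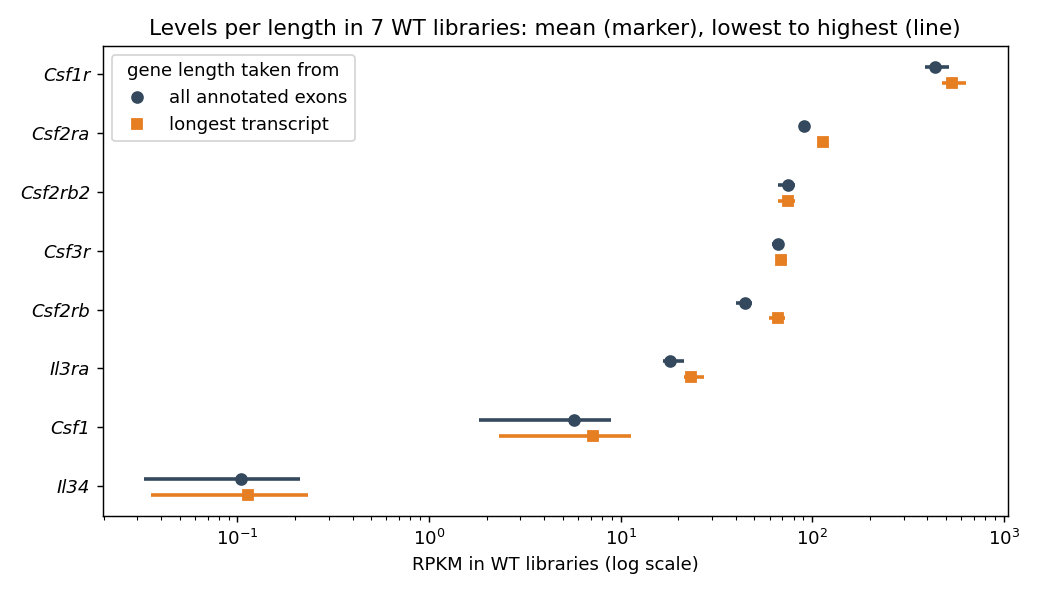
Levels per length of the 8 members in 7 WT libraries, as RPKM on a log axis, with the mean as marker and the lowest to highest library as line, for gene length taken from all annotated exons (circles) or the longest transcript (squares). Csf1r stands highest, and Csf1 and Il34 lowest with the widest lines. Csf2rb moves from 44.6 to 66.3 RPKM with the choice of length.

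Across libraries, Csf1 was related to the RNA of several marker lists, and 1 of these relations passed for both r and rho. Deviations of log2 CPM from the genotype mean were correlated over 14 libraries, for 21 pairs of members and for each member with 9 marker lists, 84 relations in all, with p-values from permutation within genotype adjusted over the 84. Of these, 4 passed for Pearson's r, 2 for Spearman's rho and 1 for both. All libraries share 1 scaling to a fixed total, so levels are not free of each other.
Csf1 was higher in libraries with more astrocyte RNA (r = 0.829, adjusted permutation p = 0.0164, rho = 0.763, adjusted permutation p = 0.0655). The relation had r = 0.703 in KO and 0.921 in WT, and 0.740 without both libraries numbered 5. Without the 2 libraries farthest from the median, here KO 5 and WT 4, it was 0.769. Which 2 libraries are left out in this way differs between relations. The 9 astrocyte markers summed to 33.9 to 274 CPM in WT, with a median of 91.2 CPM, and to 29.8 to 145 CPM in KO, with a median of 50.2. All 9 had estimates below 0 in KO over WT, 0 of them past the threshold, and Aqp4, which defines astrocytes, was above 0 in every library (2.06 to 52.2 CPM in WT, 1.16 to 28.0 CPM in KO). Oligodendrocyte lineage markers went the same way with Csf1 (r = 0.769, adjusted permutation p = 0.0355, rho = 0.714, adjusted permutation p = 0.114), with sums of 74.3 to 133 CPM in WT and 73.2 to 116 CPM in KO. Without both libraries numbered 5 this r was 0.655, and without the 2 farthest libraries (KO 4 and KO 5) 0.886. Neuronal markers had r = 0.680 with Csf1 (adjusted permutation p = 0.101, rho = 0.613, adjusted permutation p = 0.188), and r = 0.264 without both libraries numbered 5.

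The relation largest in Pearson's r, though not in rho, was the inverse one of Csf1 with 6 markers of border macrophages, the macrophages of meninges and vessels (r = -0.877, adjusted permutation p = 0.0164, rho = -0.829, adjusted permutation p = 0.0454). It was -0.766 in KO and -0.957 in WT, -0.887 without the 2 farthest libraries (KO 3 and WT 5) and -0.834 without both libraries numbered 5. The list summed to 446 to 875 CPM in WT and 498 to 815 CPM in KO, and Cd163, a defining gene, lay between 0.120 and 0.968 CPM. The lists contain genes that cultured microglia can express as well, and the part of other cells in the level of Csf1 was not tested.

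Csf1 and Csf1r also went in opposite directions (r = -0.791, adjusted permutation p = 0.0280, rho = -0.763, adjusted permutation p = 0.0655). The r was -0.908 in KO and -0.685 in WT. The 2 libraries farthest from the median of Csf1 are those numbered 5, which had the lowest Csf1 (10.9 and 9.66 CPM) and the highest Csf1r of their genotype (3323 and 3006 CPM), and without them r was -0.611. Csf1 and Csf2rb were likewise inverse (rho = -0.881, adjusted permutation p = 0.0185, r = -0.725, adjusted permutation p = 0.0902). Here the 2 farthest libraries were WT 4 and WT 6, without which r was -0.696, and it was -0.806 without both numbered 5. Among the receptors, Csf1r had r = 0.620 with Csf2rb (adjusted permutation p = 0.123), 0.549 with Csf2ra (0.247) and -0.407 with Csf2rb2 (0.402), and none of these passed.

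**Figure D5:**
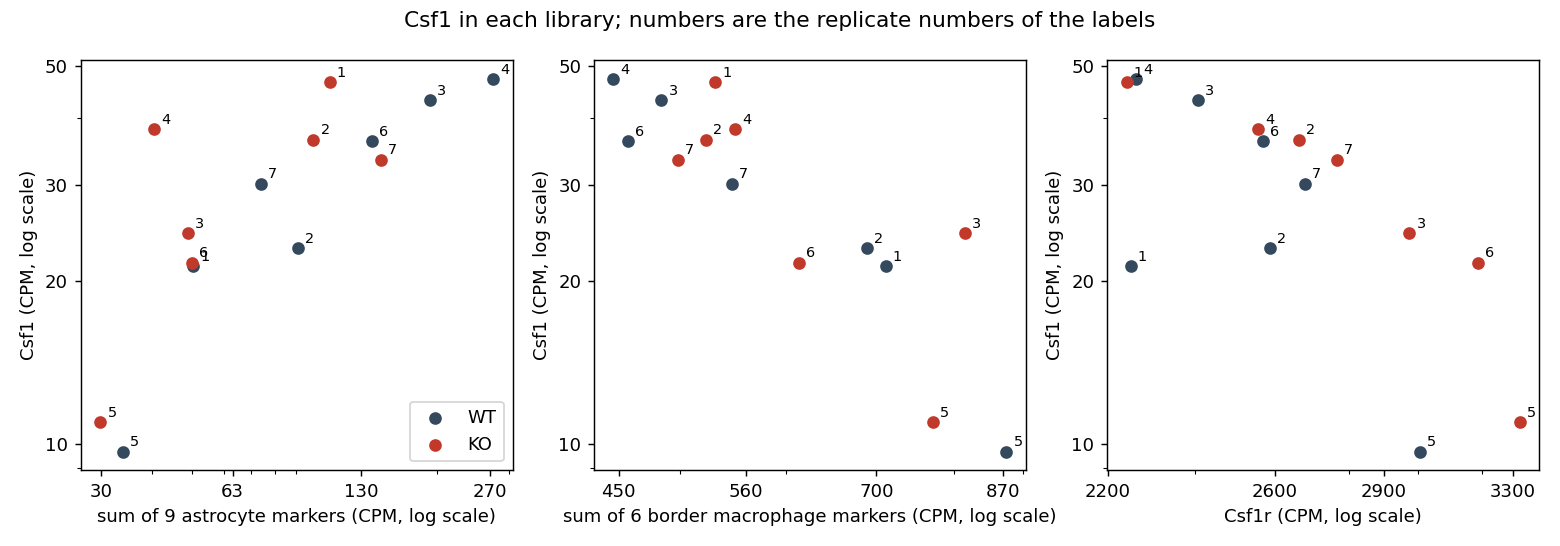
Csf1 (CPM, log scale, vertical) against the summed CPM of 9 astrocyte markers, the summed CPM of 6 border macrophage markers and Csf1r (CPM), all on log axes, for WT (blue) and KO (red) libraries labelled with their replicate numbers. Points of both genotypes rise together in the first panel and fall in the others, and the libraries numbered 5 have the lowest Csf1 at 9.66 and 10.9 CPM.

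The genes most like Csf1r in their deviations over the 14 libraries were Nfxl1 (r = 0.971), Sgpp1 (0.969), Fermt3 (0.966), Slc39a8 (0.964) and Sgk3 (0.963). Those most like Csf2ra were Fbxw4 (r = 0.879), Dennd4a (0.873), Gm45133 (0.873), BC005537 (0.868) and Arhgap27 (0.865). These are the 5 highest of all tested genes that are not members, a choice that favours high values.

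Of 83 other genes of these pathways, 75 were tested and 0 had an adjusted p under 0.05 in edgeR (smallest adjusted p = 0.943), with 4 at an unadjusted p under 0.05, 2 higher and 2 lower in KO. DESeq2 also gave 0, with 5 at an unadjusted p under 0.05, and 1 (Kitl) with the replicate block. Above 0 were 53 genes and below 0 were 22, with a median of 0.04. Over all tested genes, 50.8% were above 0, with a median of 0.0016. At an unadjusted p under 0.05 there were 3.37% in edgeR and 3.6% in DESeq2, and 0.166% were called by DESeq2 with the replicate block. This background applies to the groups below as well, and nothing is read from their counts.
Ligands of the GM-CSF, G-CSF, IL-3 and IL-5 receptors were scarce. Csf2, which encodes GM-CSF, had 5 reads in 2 of 14 libraries, and Csf3, which encodes G-CSF, had 90 reads in all, with 1 to 19 per library. Il3 had none in any library, which allows a level of up to 0.00495 CPM over the 14 libraries, a limit for counting error only. Il5 had 4 reads and the IL-5 receptor alpha chain Il5ra had 3, so that of the beta chain's partners Csf2ra and Il3ra alone were well measured. Flt3, the receptor kinase of dendritic cell precursors, had 75 reads.
Of the 13 other ligands and receptors, 7 were tested (3 above 0, 4 below, median -0.20, all 0 past the threshold). Kitl, the ligand of the related receptor KIT, was at 74.2 ± 6.55 CPM in WT and 63.7 ± 7.22 CPM in KO (SD, n = 7 each; log2 fold change -0.22, SE 0.0711, edgeR adjusted p = 0.943), and it was called by DESeq2 with the replicate number as a block (log2 fold change -0.23, SE 0.0542, adjusted p = 0.0277). Kit itself was at 1.95 ± 1.05 CPM in WT and 1.26 ± 0.814 CPM in KO. Trem2 and Tyrobp, a receptor and an adaptor that cooperate with CSF1R signalling, were at 989.9 ± 43.3 and 734 ± 23.5 CPM in WT and at 1006 ± 64.0 and 749 ± 41.8 CPM in KO.

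The 28 kinases and adaptors that act next to the receptors were all tested, 23 above 0 and 5 below, with a median of 0.04. Jak1, a kinase of cytokine receptors, was at 274 ± 5.45 CPM in WT and 285 ± 8.75 CPM in KO (log2 fold change 0.06, SE 0.0239), and Fyn, a kinase of the SRC family, at 81.2 ± 2.96 and 74.5 ± 3.62 CPM (log2 fold change -0.12, SE 0.0332). These had the smallest unadjusted p of the group, and neither passed (edgeR adjusted p = 0.943 for each). Grb2 and Akt1, which link receptors to the RAS and PI3 kinase pathways, were the most abundant, with WT means of 398 ± 16.3 and 406 ± 16.9 CPM and KO means of 399 ± 19.9 and 405 ± 18.1 CPM.
Inhibitors, with a protease that sheds the receptor, counted 14 genes, 6 above 0 and 8 below, with a median of -0.02. Inpp5d (SHIP1), a lipid phosphatase, and Cbl, the ubiquitin ligase that removes active CSF1R, were at 406 ± 27.5 and 362 ± 29.9 CPM in WT and 422 ± 33.5 and 378 ± 23.2 CPM in KO. Ptpn6 (SHP-1) was at 327 ± 26.6 CPM in WT and 350.4 ± 33.7 CPM in KO, and Ptpn11 (SHP-2) at 146 ± 1.58 and 143 ± 2.54 CPM.

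Transcription factors of Csf1r and the lineage were 12, 11 above 0 and 1 below, in a narrow span with a median of 0.06. Maf and Cebpa were the most abundant, at 880.3 ± 133 and 682 ± 64.5 CPM in WT and 909 ± 117 and 706 ± 78.2 CPM in KO. Irf8 was at 424 ± 24.3 CPM in WT and 449 ± 26.7 CPM in KO, and Tfe3 at 178 ± 7.46 and 186 ± 9.50 CPM. No factor passed the test, and the values of WT and KO libraries overlapped for each of these 4.
Of 18 genes known to be induced by CSF1 or GM-CSF, 16 were tested, 11 above 0 and 5 below, with a median of 0.05. Cd86, a costimulatory ligand, was at 51.5 ± 6.63 CPM in WT and 62.7 ± 11.9 CPM in KO (log2 fold change 0.28, SE 0.116, edgeR adjusted p = 0.943). Mcl1, a survival factor, was at 462 ± 31.7 CPM in WT and 469.8 ± 55.9 CPM in KO, and Ccnd1, a cyclin of cell cycle entry, at 271 ± 60.1 and 246 ± 65.4 CPM. Egr1, an immediate early gene, was at 111 ± 22.2 and 127 ± 52.6 CPM. Ccl17 and Ccl22, chemokines that GM-CSF induces in myeloid cells, were not tested, with 13 and 60 reads in all.

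Markers of the remaining cell types were at low levels. Neuronal markers, 11 genes, summed to 28.6 to 60.9 CPM in WT and 23.3 to 54.2 CPM in KO, with 9 below 0 and 2 above. Vascular and stromal markers summed to 28.5 to 46.7 CPM in WT and 28.7 to 57.5 CPM in KO, those of monocytes and dendritic cells to 5.93 to 7.47 CPM in WT and 6.24 to 7.72 CPM in KO, and those of mast cells and basophils to 1.15 to 2.14 CPM in WT and 1.16 to 2.02 CPM in KO. None of the marker genes passed the test between genotypes. Mcpt4, which defines mast cells, was at 0 in 13 of 14 libraries, so mast cells, which use IL-3 and KIT, left almost no RNA of that gene.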

How the data were processed

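RNA from 14 cultures of primary microglia, 7 KO and 7 WT, was sequenced by the authors as paired-end 150 bp reads from poly(A) libraries. Per the labels, Trimmomatic 0.36, STAR 2.5.2b and featureCounts of Subread 1.5.2 were used with GRCm38. The strand setting, annotation release and batch are not given in the sources used here, so reads of overlapping or antisense genes may be assigned to either. The authors deposited raw counts for each Ensembl gene, not normalized, with 38875344 to 48070236 per library. GENCODE M21 (GRCm38) named 49056 of the 49315 genes and gave lengths and positions.

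After filterByExpr (count of at least 10, total of at least 15) and TMM scaling, edgeR 4.0.16 (R 4.3.3) fitted genotype alone by quasi-likelihood, KO over WT, two-sided, with Benjamini-Hochberg adjustment over 15700 genes. The SE is the log2 fold change divided by the root of F. DESeq2 1.42.0 was an alternative. The batch that the authors modelled could not be used. Neighbours in the order of levels were compared by exact sign flips of their log2 RPKM ratios within WT libraries. Correlations were tested by 100000 permutations (Python 3.11.15, numpy 2.4.6), although they had been planned without p-values. The fits were tested on simulated data.

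Members and lists were chosen with earlier results of these data known. Named genes are the members, Timp2, of each pathway group the 2 most abundant and the 2 with the smallest p, and the 5 most alike to Csf1r and Csf2ra. Genes outside this rule were named after their values were seen (Hmgxb3, as it shares bases with Csf1r, and the pathway genes too low to test). Alternatives covered scaling, filter, tool, replicate block, gene length, summed beta chains and each library left out.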

Additional observations from a re-analysis of the deposited data

How the results depend on the processing

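The count of genes called was 3 with edgeR, and 15 with DESeq2 and 26 (0.166%) with DESeq2 and the replicate block. The last of these also called 1 of the other pathway genes, Kitl (adjusted p = 0.0277), and 0 members. The cause was not tested. With the replicate block in edgeR, 3 genes were called and 921 had an unadjusted p under 0.05, against 529. With this block the SE was 0.0411 for Il3ra and 0.227 for Csf1, against 0.0660 and 0.328 without it, and for Csf2rb 0.0538 against 0.0489. The labels do not say that a replicate number marks a shared litter, batch or day, so it was not taken to pair libraries. Of the same-numbered pairs, 3 of 7 had r over 0.1 in their deviations, which cannot decide whether they were paired. Same-numbered KO and WT libraries had a mean r of 0.103, from -0.196 (number 4) to 0.743 (number 5), against a mean of -0.0156 for other pairs, and 1 of 7 KO libraries was most like the WT library of its own number. With each library left out in turn, 3 to 4 genes, 0 members and 0 other pathway genes were called, and 6 to 7 of the 7 neighbours in the order of levels were told apart. The exception was Csf2rb2 over Csf3r, which was lost in 6 of the 7. There, 6 libraries with WT 6 going the other way could not give an exact p under 0.05. The log2 fold changes of the members kept their sign in 139 of 148 alternative values. The other 9 were of Csf1, which was -0.01 (-0.00666) with upper-quartile scaling, -0.00264 without both libraries numbered 5 (an alternative chosen after seeing the data) and between -0.15 and 0.15 with 1 library left out, always within its error. Depth limits Il34 and the 8 pathway genes too low to test, ligands, receptors and induced genes among them.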
